A study of Mus musculus with 18 samples.

Results

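The 28 genes described here encode the enzymes that make cholesterol and the proteins that sense, regulate and move it. They were taken from a list of gene symbols and comprise 7 enzymes of the mevalonate and isoprenoid steps, 12 enzymes from squalene to cholesterol, 5 genes of sterol regulatory element-binding protein (SREBP) control and 4 of sterol transport. All 28 were found among the 41605 genes of the count tables, and all 28 passed the filter on low counts. They were measured by bulk RNA sequencing of whole skin from C57BL/6 mice of 8 to 12 weeks, in 18 libraries: 6 labelled PBS (the saline control), 6 labelled detergent A and 6 labelled detergent B. No altered allele is named for any group. The series title speaks of household laundry detergents, and its design text sets each detergent against PBS. Dose, length of exposure and body site are not in the labels, and neither is whether a library is 1 animal, so p-values measure only the spread between these samples, which may be technical.

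Cholesterol is built from acetyl-CoA through mevalonate, isoprenoid diphosphates, squalene and lanosterol. When sterols in the endoplasmic reticulum are scarce, SCAP carries SREBP to the Golgi, where it is cleaved, and the released fragment turns on most genes of the route; when sterols are plentiful, the INSIG proteins hold SCAP back. In skin the route supplies the cholesterol of the lamellar lipids between cornified cells, and sebaceous glands and follicles also make sterols.

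Promoters were examined because SREBP acts there together with NF-Y, which binds CCAAT boxes, and Sp1, which binds GC boxes. Windows from 250 bases before to 50 bases after a RefSeq start site (GRCm38.p6) matched 22 of the 28 genes; Fdps, Fdft1, Sqle, Stard4, Npc1 and Abcg1 had no match. The 250 bases before the start are shown 5′ to 3′ on the gene's strand for 4 genes: Hmgcs1, which had the highest level per length and the match to the longer sterol element, Ebp, the gene called in a detergent comparison, and Mvd and Lbr, which had the steepest fall and the only rise with the hair keratins described below. Capitals mark CCAAT boxes (CCAAT, or ATTGG on the other strand) and the sterol element TCACNCCAC. Hmgcs1 is at chr13:119690101-119690350 on the plus strand, Ebp at chrX:8193513-8193762, Mvd at chr8:122443423-122443672 and Lbr at chr1:181842402-181842651, these 3 on the minus strand.
Hmgcs1: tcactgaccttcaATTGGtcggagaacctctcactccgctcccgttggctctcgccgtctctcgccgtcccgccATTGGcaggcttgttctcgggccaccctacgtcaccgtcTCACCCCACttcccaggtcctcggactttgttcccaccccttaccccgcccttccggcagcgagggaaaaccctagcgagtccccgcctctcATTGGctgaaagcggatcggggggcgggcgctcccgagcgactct
Ebp: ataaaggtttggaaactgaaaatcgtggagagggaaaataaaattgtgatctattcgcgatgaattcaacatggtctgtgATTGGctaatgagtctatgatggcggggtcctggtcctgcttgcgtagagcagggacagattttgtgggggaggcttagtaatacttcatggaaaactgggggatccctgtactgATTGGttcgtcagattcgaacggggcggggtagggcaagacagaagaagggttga
Mvd: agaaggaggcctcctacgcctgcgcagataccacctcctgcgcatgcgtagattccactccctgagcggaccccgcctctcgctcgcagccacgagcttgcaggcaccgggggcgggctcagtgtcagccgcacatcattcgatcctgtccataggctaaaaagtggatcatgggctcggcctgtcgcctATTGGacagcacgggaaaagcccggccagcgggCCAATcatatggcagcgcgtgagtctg
Lbr: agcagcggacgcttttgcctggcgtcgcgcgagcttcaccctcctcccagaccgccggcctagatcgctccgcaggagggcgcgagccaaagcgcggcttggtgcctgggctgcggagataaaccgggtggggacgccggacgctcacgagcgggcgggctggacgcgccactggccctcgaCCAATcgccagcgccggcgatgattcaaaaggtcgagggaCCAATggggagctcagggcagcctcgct
In these sequences Hmgcs1 carries its sterol element at position -137 from the start site and CCAAT boxes at -237, -176 and -45. Ebp has CCAAT boxes at -170 and -55, Mvd at -60 and -27, and Lbr at -68 and -28.

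Over whole windows and both strands, TCACNCCAC was found in 1 of the 22 matched genes (4.55%), Hmgcs1, against 1.44% of all 27025 genes with a window. The shorter CACNCCAC, which lies inside it, was found in 3 of 22 (13.6% against 7.12%): Acat2, Hmgcs1 and Insig1. CCAAT was present in 19 of 22 (86.4% against 41.1%), GGGCGG in 21 of 22 (95.5% against 38.2%) and the E-box CACGTG in 6 of 22 (27.3% against 8.09%). These are letter matches in a fixed window, and no binding was measured. The 27025 genes were not limited to the 16836 tested in skin, and the 22 genes held 30 windows where the 27025 held 32851. Whether other genes expressed in skin have similar shares was not tested.

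Levels were compared between genes as CPM, a gene's count scaled to library size, per kilobase of annotated exon. In PBS skin the order was led by Hmgcs1, which makes HMG-CoA, at 80.6 ± 12.7 CPM per kb (SD, n = 6), and by the sterol C4-methyl oxidase Msmo1 at 47.7 ± 8.96. Cyp51, the lanosterol demethylase, followed at 38.7 ± 5.72 CPM per kb. Its spread overlapped with those of Pmvk, a kinase, at 37.5 ± 6.31 and Fdps, farnesyl diphosphate synthase, at 36.6 ± 5.95. Srebf1 and Srebf2, the genes of the SREBP precursors, each stood at 31.5 CPM per kb, with SDs of 1.22 and 1.93. The lowest levels belonged to Tm7sf2, a sterol C14-reductase, at 6.91 ± 1.30 CPM per kb, the isopentenyl diphosphate isomerase Idi1 at 6.55 ± 1.25 and the sterol exporter Abcg1 at 4.82 ± 1.04. Neighbours in this order mostly lay within 1 SD of each other, whereas Hmgcs1 lay above all the others. Tm7sf2 shares 12.1% of its exon bases with Vps51, Fdps 26.7% with Gm43738 and Fdft1 18.3% with Ctsb, so their counts are uncertain where reads from a shared stretch could be split or dropped. Acat2 has a near copy, Acat3, at no more than 0.383 CPM in any library.

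**Figure D1:**
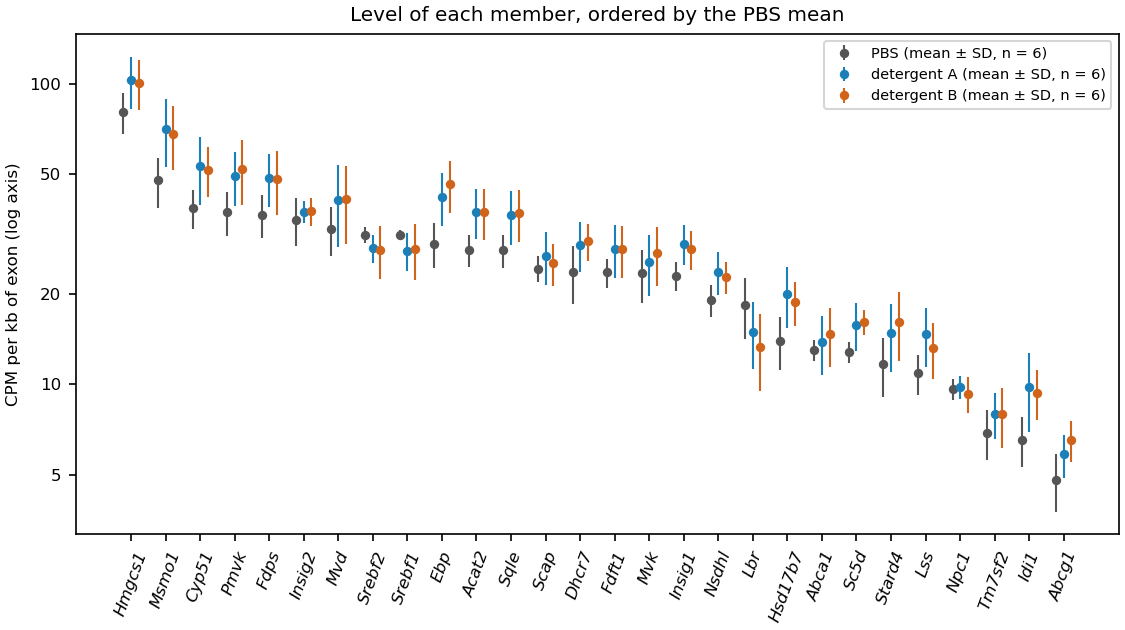
Level of each of the 28 genes in CPM per kb of exon (log axis), ordered by the PBS mean; points are means and bars SDs of 6 libraries for PBS (grey), detergent A (blue) and detergent B (orange). Hmgcs1 leads at 80.6 CPM per kb in PBS and Abcg1 is lowest at 4.82, and detergent means lie above PBS for most enzymes but not for Lbr, Srebf1 or Srebf2.

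Skin treated with detergent B differed from PBS skin by the test in 1 of the 28 genes: Ebp rose, and none fell (edgeR, adjusted p under 0.05). Over all 16836 genes tested, 3.05% were called, 1.97% higher and 1.08% lower. Ebp encodes the sterol Δ8-Δ7 isomerase of the late pathway. Its lowest, median and highest libraries were 54.4, 67.7 and 80.5 CPM in PBS, 68.2, 94.0 and 120 CPM with detergent A, and 80.8, 107 and 135 CPM with detergent B. The detergent B libraries did not overlap PBS, although the lowest of them and the highest PBS library were nearly level. The log2 fold change was 0.66 ± 0.15 (SE, n = 6 per group), 1.58-fold, with an edgeR adjusted p of 0.02998. In 1 of 28 genes, Ebp, every detergent B library lay above every PBS library, against 1.72% of all genes, and in 0 of 28 did every one lie below (1.12% of all genes).

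The Ebp call was narrow. Leaving out any 1 of PBS replicates 1, 2, 3 or 5 or of detergent B replicates 2, 4, 5 or 6 gave adjusted p-values of 0.05493 to 0.08771, and adding the hair keratins score to the model gave 0.36 on the log2 scale with an edgeR adjusted p of 0.3475. The count of members called higher also moved with 3 other libraries, to 8 without PBS replicate 6, 5 without detergent B replicate 3 and 2 without detergent B replicate 1. Over all genes the higher calls moved too, from 332 of 16836 to 1157 of 16940, 612 of 16923 and 538 of 16967 in the same order. DESeq2, run without the filter on low counts, called 4 members higher (2.96% of its 28040 genes). Limma with sample weights called 15 higher (15.2% of the 16836 genes) and 1, Lbr, lower (14.9%).

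The other 27 members did not pass, and most of their fitted values with detergent B were above 0: 23 of 27, or 24 of 28 with Ebp, against 48.7% of all genes. The median over the 27 was 0.33, against -0.01 over all genes, and the range -0.47 to 0.52. At an unadjusted p under 0.05, 15 of the 27 were higher (16 of 28 with Ebp) and 1 lower, against 12.3% and 11.1% of all genes. For detergent A, edgeR called 0 of 28 higher and 0 lower, where 0.0535% and 0.137% of all genes were called, and 14 were higher and 0 lower at an unadjusted p under 0.05, against 10% and 8.71%. Detergent A values were above 0 in 25 of 28 (48.4% of all genes), with a median of 0.32 against -0.01. No member had all detergent A libraries above or all below PBS, against 0.404% and 0.956% of all genes. DESeq2 called 4 members higher for detergent A, namely Hsd17b7, Ebp, Insig1 and Msmo1, and 0 lower. Its shares were 1.68% and 1.17% of the 28040 genes it tested without the filter. Limma with sample weights called 18 higher and Lbr lower, with 11.2% and 12% of the 16836 genes. In edgeR, 2 were called higher without PBS replicate 6 or without detergent A replicate 6, and 8 without detergent A replicate 2. Over all genes the higher calls of these fits were 565 of 16940, 475 of 16910 and 504 of 16909, against 9 of 16836 with all libraries. Both detergents were set against the same 6 PBS libraries, so their values are given side by side and are not independent.

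**Figure D2:**
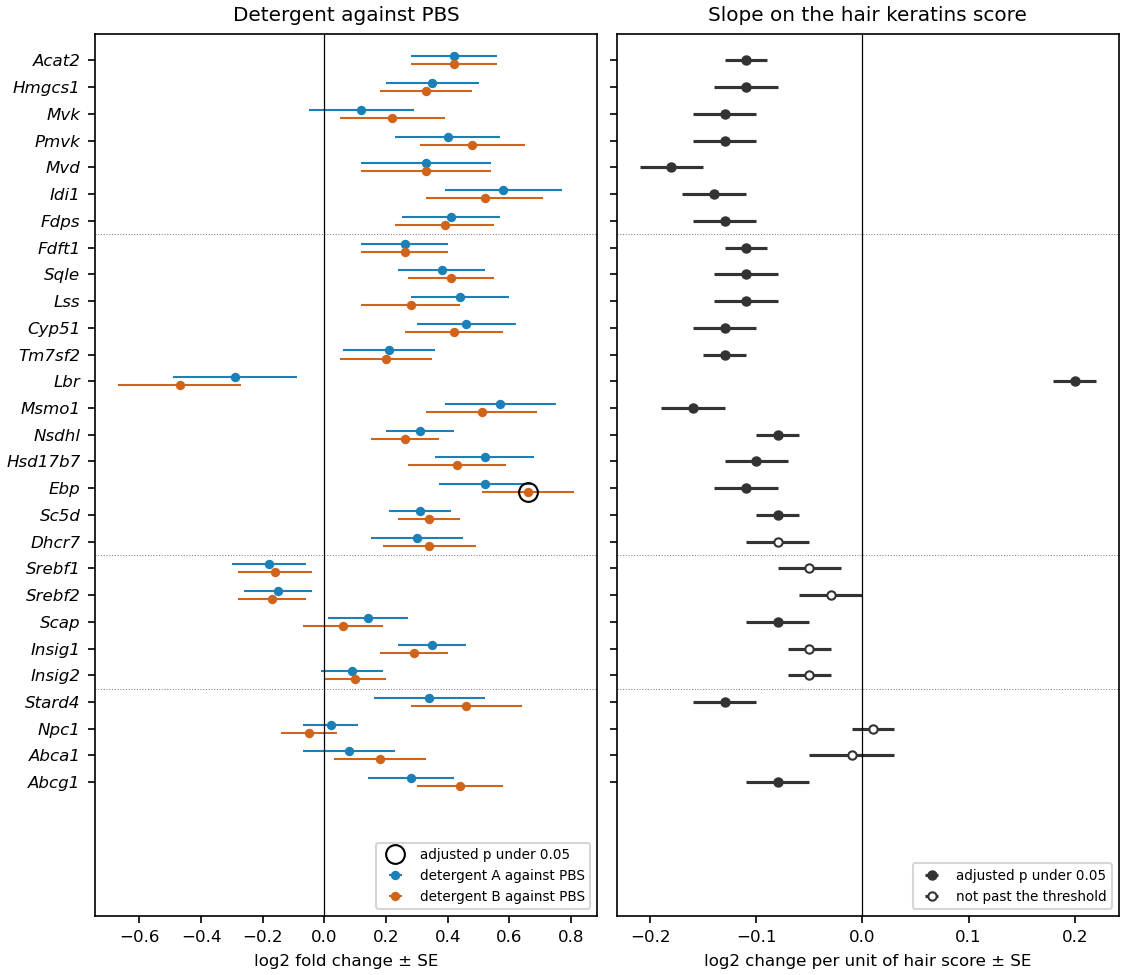
Left, log2 fold change of each gene against PBS (point) with its SE (bar) for detergent A (blue) and detergent B (orange), with a ring where the edgeR adjusted p was under 0.05; right, the change per log2 unit of the hair keratins score, filled where past the threshold. Ebp with detergent B, at 0.66, is the single ringed point; on the right 20 filled points lie below 0 and Lbr lies above it at 0.20.

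Among the 7 mevalonate and isoprenoid enzymes, all fitted values were above 0 for both detergents, with medians of 0.40 for detergent A and 0.39 for detergent B, and none passed the test. Idi1, which isomerises isopentenyl diphosphate, had its lowest, median and highest libraries at 15.7, 23.1 and 29.1 CPM in PBS, 21.4, 35.9 and 44.9 with detergent A and 23.1, 33.2 and 40.6 with detergent B. Its log2 differences were 0.58 ± 0.19 and 0.52 ± 0.19, with edgeR adjusted p-values of 0.124 and 0.1151. The groups overlapped, with 4 detergent A and 5 detergent B libraries above the highest PBS library. Acat2, which condenses acetyl-CoA, stood at 58.9, 73.0 and 84.6 CPM in PBS, 71.6, 93.9 and 120 with detergent A and 69.9, 96.9 and 121 with detergent B. Its log2 difference was 0.42 ± 0.14 for each detergent, and edgeR adjusted p-values were 0.125 and 0.08546. In each detergent group 4 of the 6 Acat2 libraries lay above all PBS libraries. The values of Hmgcs1 (0.35 and 0.33), the kinases Mvk (0.12 and 0.22) and Pmvk (0.40 and 0.48), the decarboxylase Mvd (0.33 and 0.33) and Fdps (0.41 and 0.39) did not pass.

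The 12 enzymes from squalene onwards had medians of 0.35 and 0.34, with fitted values above 0 in 11 for each detergent. Msmo1 stood at 237, 276 and 388 CPM (lowest, median, highest) in PBS, 280, 436 and 569 with detergent A and 285, 400 and 584 with detergent B. Its log2 differences were 0.57 ± 0.18 and 0.51 ± 0.18, and its edgeR adjusted p-values 0.1184 and 0.1084. The highest PBS library, replicate 6, lay inside the range of both detergents. Hsd17b7, the sterol 3-ketoreductase, stood at 47.6, 72.6 and 87.2 CPM in PBS, 73.5, 108 and 128 with detergent A and 81.3, 90.2 and 118 with detergent B. Its log2 differences were 0.52 ± 0.16 and 0.43 ± 0.16, with edgeR adjusted p-values of 0.113 and 0.1247. All 6 libraries of each detergent lay above the PBS mean for Hsd17b7, and the ranges overlapped. Sc5d, the lathosterol oxidase, stood at 56.7, 61.1 and 68.6 CPM in PBS, 62.0, 75.4 and 95.4 with detergent A and 67.7, 79.0 and 87.6 with detergent B. Its log2 differences were smaller, at 0.31 ± 0.10 and 0.34 ± 0.10, with edgeR adjusted p-values of 0.1337 and 0.0711, and 5 detergent B libraries lay above every PBS library. The remaining values for detergents A and B were 0.26 and 0.26 for the squalene synthase Fdft1, 0.38 and 0.41 for the squalene epoxidase Sqle and 0.44 and 0.28 for the lanosterol synthase Lss. They were 0.46 and 0.42 for Cyp51, 0.31 and 0.26 for the C4-decarboxylating dehydrogenase Nsdhl and 0.30 and 0.34 for the 7-dehydrocholesterol reductase Dhcr7.

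Lbr and Tm7sf2 both encode sterol C14-reductases; the product of Lbr is also the lamin B receptor of the nuclear envelope. Lbr was the enzyme with values below 0, at 48.4, 92.7 and 105 CPM in PBS, 51.0, 68.7 and 93.1 with detergent A and 46.5, 56.7 and 90.3 with detergent B. The log2 difference was -0.29 ± 0.20 for detergent A and -0.47 ± 0.20 for detergent B, with edgeR adjusted p-values of 0.4441 and 0.1749. The lowest PBS value was replicate 6 alone. Without this library, detergent B gave 1 member called lower, Lbr, where 731 of 16940 genes were called lower. Tm7sf2 had differences of 0.21 ± 0.15 and 0.20 ± 0.15, neither past the threshold.

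None of the 5 regulatory genes passed the test against PBS. Insig1, which retains SCAP in the endoplasmic reticulum and is itself an SREBP target, stood at 58.5, 71.2 and 81.1 CPM in PBS, 77.1, 88.0 and 116 with detergent A and 67.7, 87.0 and 106 with detergent B. Its log2 differences were 0.35 ± 0.11 and 0.29 ± 0.11, with edgeR adjusted p-values of 0.1098 and 0.1254. In each detergent group 5 of 6 Insig1 libraries lay above the highest PBS library. Srebf2, whose product chiefly serves cholesterol genes, stood at 204, 228 and 243 CPM in PBS, 175, 206 and 228 with detergent A and 147, 200 and 259 with detergent B, with log2 differences of -0.15 and -0.17. Srebf1, whose main products serve fatty acid genes, stood at 166, 179 and 184 CPM in PBS, 125, 156 and 183 with detergent A and 120, 160 and 202 with detergent B, with log2 differences of -0.18 and -0.16. Both Srebf genes were thus fitted below PBS where most enzymes were above, and their detergent libraries spread more widely than PBS. Scap (0.14 and 0.06) and Insig2 (0.09 and 0.10) had values close to their SEs of 0.13 and 0.10.

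The 4 transport genes also stayed short of the threshold. Abcg1, which exports sterols and is a target of the liver X receptors (LXR), stood at 28.9, 31.8 and 48.2 CPM in PBS, 37.7, 38.8 and 52.6 with detergent A and 37.5, 47.3 and 58.0 with detergent B. Its log2 differences were 0.28 ± 0.14 and 0.44 ± 0.14, with edgeR adjusted p-values of 0.2808 and 0.07783. All libraries of both detergents lay above the PBS mean, and 2 in each group lay above the highest PBS library, replicate 6. Stard4, a cytosolic sterol carrier, had log2 differences of 0.34 ± 0.18 and 0.46 ± 0.18, Abca1, the exporter that loads apolipoprotein A-I, 0.08 ± 0.15 and 0.18 ± 0.15, and Npc1, which releases cholesterol from lysosomes, 0.02 ± 0.09 and -0.05 ± 0.09.

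Between the detergents no member differed by the test: edgeR called 0 of 28, as it called 0% of all genes, and DESeq2 and limma with sample weights also called none. At an unadjusted p under 0.05 no member was counted in either direction, against 1.79% of all genes higher and 1.48% lower. The differences of detergent B from detergent A ran from -0.17 for Lbr to 0.16 for Abcg1, with a median of -0.00 and 12 of 28 above 0, against 49.9% of all genes. The 95% interval for Ebp was -0.17 to 0.45 and that for Lbr -0.60 to 0.25. Differences between the detergents inside these intervals, which are not adjusted for the number of genes tested, were not excluded.

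Libraries of 1 group differed among themselves, and the enzymes moved together in doing so. Of the 18 enzymes other than Lbr, 14 were above their 18-library median in PBS replicate 6, while the other 5 PBS libraries had 0 to 2. In detergent A all 18 were above it in replicates 3 and 5, 14 in replicate 1 and 0 in replicate 2; in detergent B all 18 were above it in replicates 5 and 6 and 1 in replicate 3. PBS replicate 5 held the lowest PBS value of all 18 enzymes, and PBS replicate 6 the highest of 17.

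**Figure D3:**
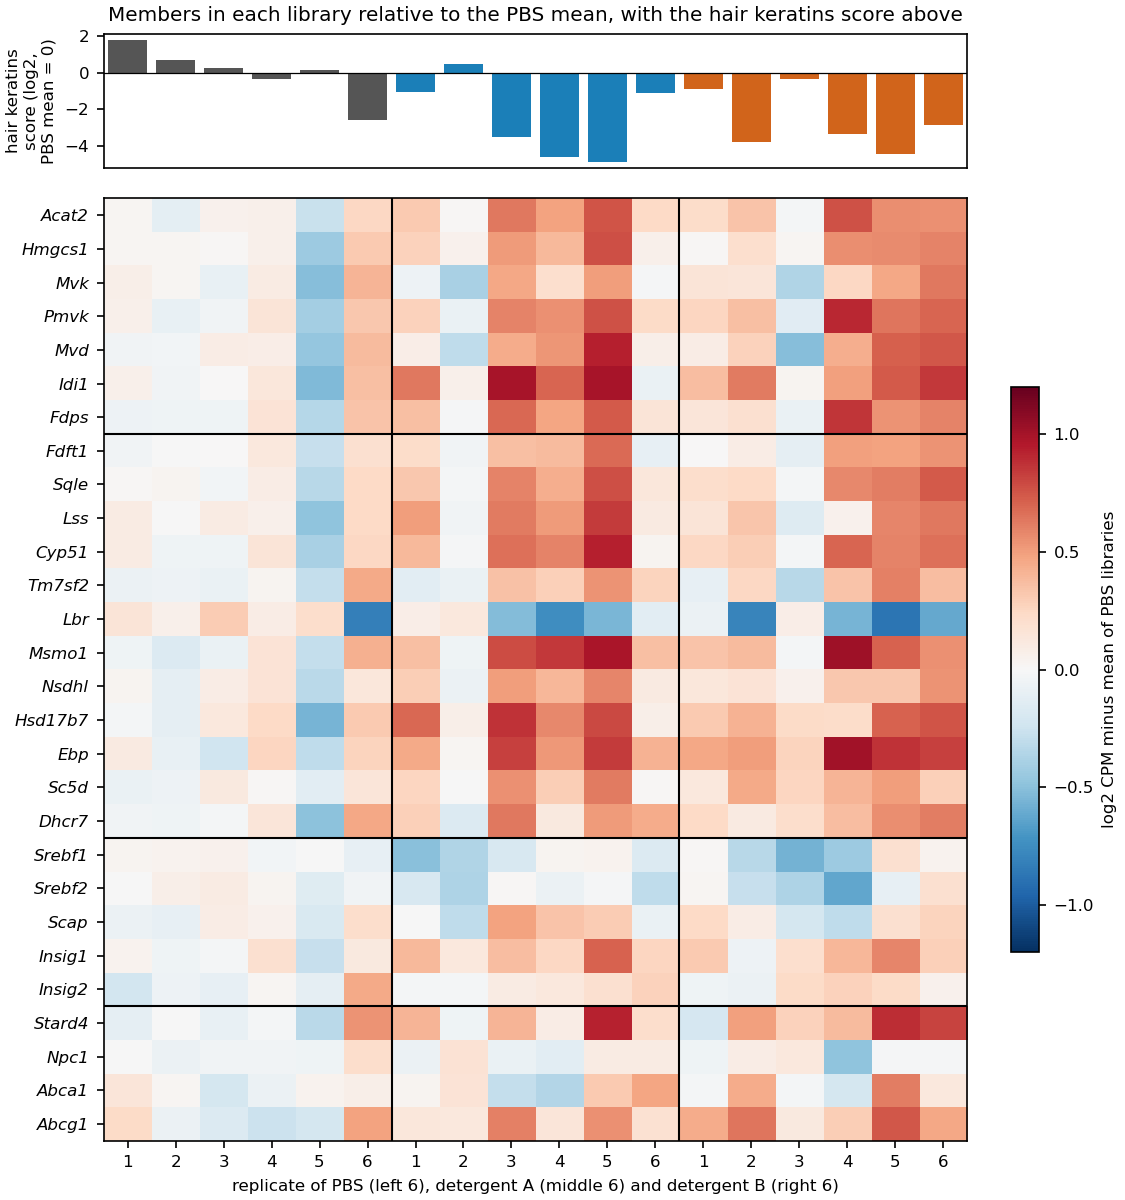
Each row is 1 of the 28 genes and each column 1 library; colour gives log2 CPM minus the mean of the PBS libraries, and the bars above give the hair keratins score (log2, PBS mean 0). The enzyme rows are red together in PBS replicate 6, detergent A replicates 3 to 5 and detergent B replicates 2 and 4 to 6, where the score is -2.59 or lower, and Lbr is blue in these libraries; detergent A replicate 1, at -1.04, also has 14 of the 18 enzymes above the median, without low Lbr (89.8 CPM).

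The hair shaft keratins varied most between these libraries among the marker lists examined, so the members were also read against them. The hair keratins score is the mean log2 CPM of 12 keratin genes of the hair shaft, given relative to the PBS mean. Of the 12, 11 rose with the score they form; Krt84 did not, at -0.12 ± 0.10 per unit, and its means were 2.10 CPM in PBS, 4.31 in detergent A and 4.44 in detergent B. The score ran from -4.90 to 1.79, and the group means relative to PBS were -2.45 for detergent A and -2.62 for detergent B. Summed hair keratins ranged over 23.0 to 495 CPM in PBS, 9.47 to 296 in detergent A and 6.85 to 197 in detergent B, and none of the 12 was at 0 in all libraries. Slopes were fitted with group in the model, so they describe libraries of the same group. In whole skin, fewer cells of a type and less RNA per cell cannot be told apart.

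Within groups, 20 of 28 members fell as the hair keratins score rose and 1, Lbr, rose (edgeR, adjusted p under 0.05), against 11.9% and 13.5% of all genes. The enzymes accounted for 17 of the 20. Mvd was steepest, at -0.18 ± 0.03 on the log2 scale per log2 unit of score (adjusted p = 0.000358), followed by Msmo1 at -0.16 ± 0.03 (adjusted p = 0.0002184) and Idi1 at -0.14 ± 0.03 (adjusted p = 0.004948). Ebp had a slope of -0.11 ± 0.03 and an adjusted p of 0.008256. The slopes of Stard4 (-0.13), Scap (-0.08) and Abcg1 (-0.08) also passed, but that of Abcg1 lost its call in 14 of 23 alternative fits, that of Hsd17b7 (-0.10) in 5, that of Scap in 3 and those of Lss (-0.11) and Nsdhl (-0.08) in 1 each. Those of Srebf1 (-0.05), Srebf2 (-0.03), Insig1 (-0.05), Insig2 (-0.05), Dhcr7 (-0.08), Abca1 (-0.01) and Npc1 (0.01) did not. In all 23 alternative fits 15 members fell and Lbr rose; the count of falls ran from 15 without detergent A replicate 2 to 21 without PBS replicate 5.

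Lbr and Tm7sf2, the pair with the same sterol reaction, had slopes of opposite sign: 0.20 ± 0.02 for Lbr (edgeR adjusted p = 1.033e-05) and -0.13 ± 0.02 for Tm7sf2 (adjusted p = 0.0003823). No library had a score between -2.59 and -1.14. In the 8 libraries at -2.59 or lower, Lbr was at 46.5 to 59.3 CPM, and in the 10 at -1.14 or higher it was at 78.1 to 105 CPM, with no overlap. Over all genes, 4.63% did not overlap between these libraries and were higher where the score was higher, and 1.13% were lower. Among the 28 members 1, Lbr, was of the first kind, which is not a larger share than over all genes. Pmvk, Mvd and Msmo1, 3 of the 28, were of the other kind. Tm7sf2 was at 35.8 to 45.7 CPM in the 8 and 23.9 to 36.1 CPM in the 10. Msmo1 was at 377 to 584 CPM and 237 to 372 CPM in the same libraries. The side of low scores held PBS replicate 6, detergent A replicates 3 to 5 and detergent B replicates 2 and 4 to 6. All other PBS libraries were on the other side, so group and score are mixed in this split. It was set by a gap in these same scores.

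**Figure D4:**
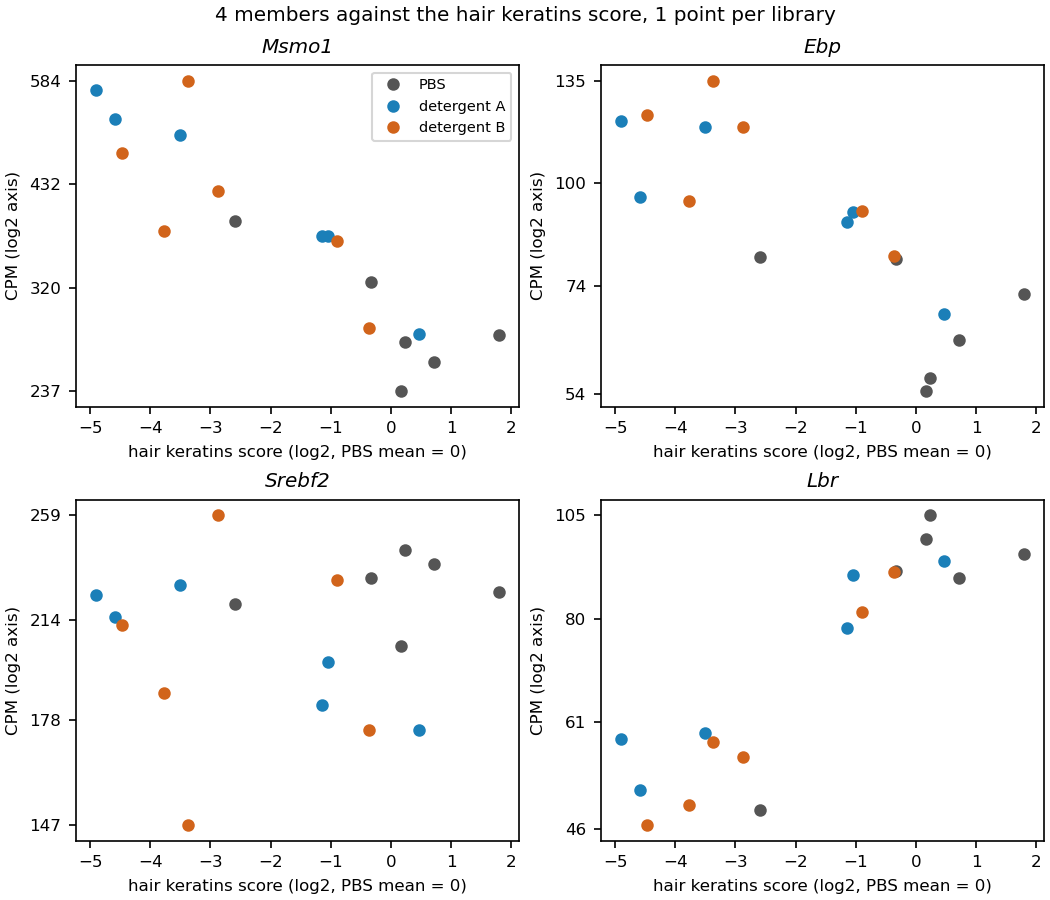
CPM (log2 axis) of Msmo1, Ebp, Srebf2 and Lbr against the hair keratins score (log2, PBS mean 0), 1 point per library, coloured by group. Msmo1 is high where the score is low, and Lbr is low there (46.5 to 59.3 CPM at scores of -2.59 or lower). Ebp is mostly higher at low scores but overlaps. It is at 80.5 CPM in PBS replicate 6 (score -2.59) and 92.3 CPM in detergent B replicate 1 (score -0.89). Srebf2 shows no such order.

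With the score as a covariate, edgeR called 0 members for either detergent, as it called 0% of all genes, and 1 member for detergent A and 2 for detergent B were under an unadjusted p of 0.05, against 9.87% and 10.3% of all genes. For detergent A this was Srebf1, lower at -0.32, and for detergent B Ebp, higher at 0.36, and Srebf1, lower at -0.30. The members' medians were then 0.09 for detergent A and 0.07 for detergent B. Group and score overlap in part, because 5 of 6 PBS scores were at -0.33 or higher. Other marker lists moved with the same score: 4 of 5 suprabasal markers, 2 of 5 basal markers and 2 of 7 sebaceous markers fell with it, as did 1 of 5 skeletal muscle markers, and 5 of 5 proliferation markers and 1 of 5 fibroblast markers rose, against 11.9% and 13.5% of all genes. No adipocyte or leukocyte marker passed. Against PBS, suprabasal markers summed to 7924 to 19837 CPM in PBS, 12481 to 32097 in detergent A and 19306 to 34969 in detergent B. Of these markers 2 of 5 were called higher in detergent B, against 1.97% of all genes. Sebaceous markers summed to 2038 to 2960 CPM in PBS, 2186 to 3699 in detergent A and 2501 to 3450 in detergent B, with none called. No sebaceous or suprabasal marker was at 0 in all libraries. Krt79, at a mean of 1593 CPM in PBS, led the sebaceous sum, and Krt1 and Krt10 led the suprabasal sum. For detergent A, 6 of 7 sebaceous and 4 of 5 suprabasal markers were fitted above 0 (48.4% of all genes). For detergent B these were 5 of 7 and 5 of 5 (48.7%). The part of these cell types in the members' values was not tested.

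Neighbouring lists of sterol and lipid genes were read from the same fit. Each is named by its 3 smallest p-values for detergent B, and none held a call for detergent A, against 0.19% of all genes. In the LXR and oxysterol list 1 of 9 rose with detergent B, where 1.97% of all genes were called higher. It was Smpdl3a, a phosphodiesterase, with 0.59 ± 0.13 on the log2 scale (edgeR adjusted p = 0.02607). Its lowest, median and highest libraries were 57.0, 63.1 and 70.1 CPM in PBS, 48.8, 70.6 and 90.4 in detergent A and 71.9, 95.2 and 112 in detergent B, which lay above all PBS libraries. The call was lost without any 1 of PBS replicates 2, 3 or 5 or detergent B replicates 2, 5 or 6 (edgeR adjusted p = 0.05278 to 0.07356) and with the hair keratins score in the model, where the value was nearly unchanged at 0.56 (0.2067). The values of Cyp7b1 (0.47) and Nr1h2 (-0.22) did not pass. In the epidermal cholesterol sulfate list 1 of 3 genes tested rose, beside the same 1.97% of all genes. It was Sult2b1, the cholesterol sulfotransferase, with 0.79 ± 0.19 (edgeR adjusted p = 0.03843). Sult2b1 stood at 70.4, 77.2 and 92.9 CPM in PBS, 74.7, 121 and 201 in detergent A and 90.2, 145 and 154 in detergent B, with 5 detergent B libraries above all PBS libraries. This call was lost without any 1 of PBS replicates 1, 2, 3 or 5 or detergent B replicates 2, 4, 5 or 6 (edgeR adjusted p = 0.06869 to 0.1038), without the filter on low counts (0.05517) and with the score in the model, where the value was 0.44 (0.4273). Papss1 (0.02) and Papss2 (0.07), which make the sulfate donor, did not pass.

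The other 4 lists held no call for detergent B either, where 3.05% of all genes were called. In the fatty acid arm of SREBP, 0 of 16 passed and the median was 0.22; the values were 0.50 for malic enzyme Me1, 0.47 for the stearoyl-CoA desaturase Scd1 and 0.30 for the ATP citrate lyase Acly. Of 7 genes for SREBP processing and INSIG turnover none passed, with 0.31 for Erlin1, -0.21 for the protease Mbtps1 and 0.18 for the ubiquitin ligase Rnf139. Of 9 in the non-sterol isoprenoid branches none passed, with 0.92 ± 0.27 for Pdss1, which makes the side chain of ubiquinone (edgeR adjusted p = 0.06808), 0.23 for Pdss2 and 0.22 for the prenyltransferase subunit Fnta. Of 12 for cholesterol uptake, storage and trafficking none passed, with 0.51 for the esterifying enzyme Soat1, 0.65 for Gramd1c and -0.25 for Gramd1a.

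Library totals ran from 17312623 to 29599018 counts, and the lowest count of any member in any library was 339, for Idi1. No 2 libraries were alike within sampling noise over their 153 pairs. Markers of epidermis, sebaceous gland, fat, fibroblasts, skeletal muscle and leukocytes were present in every group.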

How the data were processed

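Whole mouse skin in 18 libraries (6 each of PBS, detergent A and detergent B) was profiled by RNA sequencing. The authors deposited raw read counts per gene, not normalised; the submitters' processing notes name STAR, featureCounts and GRCm38.p5, while the sources used here give no versions, annotation release or strand setting. Of 41605 gene IDs, 41519 matched GENCODE M21 (GRCm38), which gave symbols and exon lengths.

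Counts were fitted with edgeR 4.0.16 in R 4.3.3: default low-count filter (16836 genes), TMM scaling, a robust quasi-likelihood fit of group on all 18 libraries (15 residual degrees of freedom), and Benjamini-Hochberg adjustment over every gene tested (threshold 0.05). CPM values use the scaled library sizes. The hair keratins score (mean log2 CPM, prior count 2, 12 of 13 listed genes) was added to that model for slopes. The code was tested on simulated data.

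The members and gene lists, and the hair keratins as a covariate, were chosen with earlier results of these data known. All 28 members are named; group values are given for members past the threshold and for those with the smallest p against PBS until 8 were reached (Lbr, Srebf1 and Srebf2 were added after their values were seen), and for each neighbouring list the 3 smallest p-values for detergent B are named. Smpdl3a and Sult2b1 group values, and the library ranges of Tm7sf2 and Msmo1 by score, were also added after seeing the values.

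Alternatives were DESeq2 1.42.0, limma 3.58.1 with voom sample weights, RLE and upper-quartile scaling, no filter, the 12 libraries compared, a replicate block, the score as covariate, GC offsets in 20 bins, the score without its 3 most abundant genes, and leaving out each library. Promoter sequences are from RefSeq (GRCm38.p6).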

Additional observations from a re-analysis of the deposited data

Results flagged for a closer look

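In 84 groups of 6 libraries (28 members in 3 groups), the highest or lowest library stood far from the other 5 in 6 cases. Chance gives about 1 in 20 for a single group. The 84 groups share 18 libraries in which the enzymes moved together, so they are not independent and this rate does not judge the 6 cases. PBS replicate 6 accounted for 5 of them, being the highest PBS library for Tm7sf2 at 41.3 CPM, Insig2 at 166 CPM, Stard4 at 93.7 CPM and Npc1 at 126 CPM, and the lowest for Lbr at 48.4 CPM. This library also had the lowest hair keratins score of the PBS group, -2.59. The remaining case was detergent B replicate 4, lowest in its group for Npc1 at 77.9 CPM. The calls without PBS replicate 6 are among the values given below, and the cause of its position was not tested.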

How the results depend on the processing

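No result changed sign past its threshold. For detergent A the count of members called higher was 0 in edgeR, 4 in DESeq2 and 18 in limma with sample weights, which also called 1 lower; leaving out 1 library gave 0 to 8. For detergent B it was 1 in edgeR, 2 with only the 12 libraries compared, 4 in DESeq2, 15 in limma with sample weights (and 1 lower) and 0 with the hair keratins score as covariate; leaving out 1 library gave 0 to 8 higher and 0 to 1 lower. With that covariate the medians were 0.09 for detergent A and 0.07 for detergent B; leaving out 1 library they were 0.24 to 0.40 and 0.25 to 0.38, and -0.06 to 0.07 between the detergents. The cause of these shifts was not tested. Without the filter on low counts, DESeq2 tested 28040 genes and edgeR 28046, where the main edgeR fit and limma tested 16836. Over all genes, higher and lower calls were 9 and 23 for detergent A in edgeR, 470 and 327 in DESeq2, 1892 and 2022 in limma, and 0 in both directions with GC offsets, the covariate or the replicate block; leaving out 1 library gave 0 to 565 higher and 0 to 343 lower. For detergent B they were 332 and 182 in edgeR, 829 and 562 in DESeq2, 2563 and 2511 in limma, 182 and 69 without the filter on low counts, 229 and 52 with GC offsets, 0 with the covariate and 252 and 125 with the replicate block; leaving out 1 library gave 24 to 1157 higher and 3 to 731 lower. Correlations did not settle whether replicate numbers pair the libraries. Between groups, same-number pairs ran from -0.348 to 0.546, with 8 of 18 over 0.1. Their median was 0.025, against -0.055 for pairs with different numbers. Of 18 libraries, 6 correlated best with a library of their own number. Under the replicate block Ebp was 0.65 for detergent B (edgeR adjusted p = 0.04269), members called were 0 for detergent A and 1 for detergent B, and slopes gave 20 falls and 1 rise; Sult2b1 lost its call (0.05738). Over 28 members and 27 alternatives, 35 values for detergent A and 32 for detergent B newly passed the threshold, 9 for detergent B (all Ebp) no longer passed, and none between the detergents did; over 23 alternatives, 24 slopes no longer passed and 6 newly passed. With 6 libraries a group and an SE of 0.09 to 0.21, small differences were not resolved. Differences above the SE could also stay short of the threshold, as Idi1 did with detergent A at 0.58.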

Other observations

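Within the fatty acid arm of SREBP, 8 of 16 genes fell as the hair keratins score rose, as most sterol enzymes did, and 3 rose (edgeR, adjusted p under 0.05), against 11.9% and 13.5% of all genes, so the share that rose is near that of all genes; these 3 were singled out after their values were seen. Fads2, the Δ6-desaturase of polyunsaturated fatty acids, had a slope of 0.58 ± 0.05 per log2 unit of score (adjusted p = 1.621e-07), and Fads1, the Δ5-desaturase, 0.30 ± 0.03 (adjusted p = 1.839e-06). Scd2, a stearoyl-CoA desaturase, had 0.23 ± 0.06 (adjusted p = 0.01161). Fads2 stood at 3.13, 19.8 and 21.9 CPM (lowest, median, highest) in PBS, 1.92, 4.83 and 17.3 in detergent A and 3.36, 4.24 and 14.3 in detergent B. Its groups overlapped, and its log2 differences of -1.32 ± 0.55 and -1.27 ± 0.55 from PBS did not pass the test (edgeR adjusted p = 0.2116 and 0.1769).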
